A study of Mus musculus with 2 samples.

Results

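The 9 inflammatory CC chemokine and receptor genes described here were followed across the cells of a mouse breast tumour and a lymph node. They were chosen by symbol, and all 9 were found among the 22620 genes of both gene tables. 7 of them, Ccl2, Ccl3, Ccl4, Ccl5, Ccl7, Ccl8 and Ccl12, encode secreted chemokines, and 2, Ccr1 and Ccr2, encode receptors. The samples were a primary tumour (PT) library and a lymph node (LN) library of droplet single-cell RNA-seq, 1 per tissue, each made from the pooled tissue of 6 tumour-bearing C57BL/6J mice. The tumour cells were EO771-HEVM3, a derivative of the C57BL/6 breast cancer cell line EO771, obtained by repeated selection in mice for spread through high endothelial venules. Both groups carried the same tumour cells, no drug or other genotype was compared, and the tissues were digested with different enzymes and for different times, so tissue and digestion cannot be told apart. Cells of the 6 mice carried no mark of the animal, so the spread between mice was not measured, no test between tissues was possible, and each interval given in brackets is a 95% interval for counting error only.

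CC chemokines are small secreted proteins that draw leukocytes along a gradient to a site of injury, infection or tumour growth. Ccl2, Ccl7, Ccl8 and Ccl12 belong to the monocyte chemoattractant group, and Ccl2, Ccl7 and Ccl12 are ligands of Ccr2, the receptor through which inflammatory monocytes leave the bone marrow and enter tissue. Ccl3 and Ccl4 are the macrophage inflammatory proteins and Ccl5 is a product of activated T cells and NK cells, and Ccl3 and Ccl5 bind Ccr1, a receptor of neutrophils and monocytes. In tumours, Ccl2 is best known for the recruitment of monocytes that become tumour macrophages.

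The 9 genes lie in 3 groups on the mouse genome (GRCm38, GENCODE annotation). Ccl2 (chr11:82035571-82037453), Ccl7 (chr11:82045712-82047525), Ccl12 (chr11:82101845-82103400) and Ccl8 (chr11:82115185-82116799), all on the plus strand, span 81.2 kb. Ccl5 (chr11:83525778-83530518, minus), Ccl3 (chr11:83647844-83649355, minus) and Ccl4 (chr11:83662584-83664683, plus) span 138.9 kb further along the same chromosome. Ccr1 (chr9:123962124-123968692, minus) and Ccr2 (chr9:124101950-124113557, plus) span 151.4 kb. The longest stretch of transcript sequence shared by any pair of members was 23 bases, between Ccl2 and Ccl7, so reads of the neighbouring ligands could be told apart over most of their length.

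Ccl12 and Ccl8 are neighbours that differed in their cells within the PT, as given below, and the 250 bases before each start site are shown for that reason. They come from RefSeq (GRCm38.p6), on the plus strand, at chr11:82101595-82101844 for Ccl12 and chr11:82114935-82115184 for Ccl8, with the letters TATAAA in capitals.
Ccl12: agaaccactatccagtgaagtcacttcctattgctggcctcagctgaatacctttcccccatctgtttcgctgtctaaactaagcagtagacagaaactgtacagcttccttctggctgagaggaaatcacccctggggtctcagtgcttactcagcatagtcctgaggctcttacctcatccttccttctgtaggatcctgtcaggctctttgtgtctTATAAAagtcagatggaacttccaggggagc
Ccl8: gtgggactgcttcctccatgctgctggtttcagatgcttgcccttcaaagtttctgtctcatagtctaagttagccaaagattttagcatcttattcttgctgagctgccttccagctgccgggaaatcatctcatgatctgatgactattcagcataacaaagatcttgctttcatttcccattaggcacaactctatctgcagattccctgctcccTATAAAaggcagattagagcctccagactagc
TATAAA was searched on both strands and starts 31 bases before the Ccl12 start and 32 bases before the Ccl8 start. These letters occur in 13.6% of the 32851 mouse promoters in the table. Each promoter was searched from 250 bases before to 50 bases after the start. The percentages here thus belong to longer windows than the stretches shown. Neither stretch holds TGANTCA (7.81% of promoters) or TTGCNNAA (10.8%) on either strand, nor an NF-kB-like pattern of 3 G, any 5 bases and 2 C (50.8%). The table held promoters for 5 of the 9 members, Ccl3, Ccl8, Ccl12, Ccr1 and Ccr2.

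The PT library held 12427 cells and the LN library 11617, of which 8756 and 9689 remained after removal of cells with over 6000 detected genes, over 5% mitochondrial counts or a doublet call. The median number of unique molecular identifiers (UMIs, each a counted RNA molecule) was 9383 per PT cell and 2324 per LN cell, and 31 cell barcodes were shared by the kept cells of the libraries. Clustering gave 41 clusters, 34 of which were named as cells like a type from lists of marker genes; the rule for naming them was set after the data were seen. Classes were of very unequal size: the PT held 6124 cancer cells, 601 macrophages, 585 T cells, 394 monocytes, 267 neutrophils, 84 fibroblasts, 51 endothelial cells, 40 dendritic cells and 26 NK cells, and the LN 4614 B cells, 3695 T cells, 608 cancer cells, 204 dendritic cells, 189 endothelial cells, 101 plasma cells, 65 plasmacytoid dendritic cells, 63 NK cells, 30 neutrophils and 20 monocytes. 568 PT cells and 90 LN cells stayed unnamed. Levels are given as CPM, the UMIs of a gene per 1000000 UMIs of the class.

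In the PT, 7 of the 9 members had their highest level in macrophages, monocytes or neutrophils. The share of all genes led by these classes was not computed, so no weight is placed on this count or its LN counterpart. Ccl2, Ccl7 and Ccl12 were highest in monocytes, Ccl8 in macrophages, and Ccl3, Ccl4 and Ccr1 in neutrophils. The exceptions were Ccl5, which was highest in dendritic cells, and Ccr2, which was highest in NK cells. The Ccr2 level in NK cells rested on 14 UMIs, and its interval overlapped that of monocytes. Monocytes led Ccr2 in 4 of 5 alternatives. In those without the limit on detected genes and with each library clustered on its own, no PT NK class formed. In the LN, 4 of 9 had a monocyte or neutrophil class in front (at a finer clustering, resolution 2.0, which formed a macrophage class, 7 had a macrophage, monocyte or neutrophil class in front). These were Ccl3 and Ccr1 in neutrophils, Ccr2 in monocytes, and Ccl8 in monocytes, where it rested on 1 UMI. The Ccr2 interval of LN monocytes overlapped that of LN NK cells. NK cells led LN Ccr2 in 3 of 5 alternatives, and no LN NK class formed in the others. Ccl2 led in LN endothelial cells and Ccl5 in NK cells. Ccl7 led in endothelial cells with 61 of 171 UMIs, but 18 were in the 8 macrophages, too few for a class, and macrophages or neutrophils led in 3 of 5 alternatives. Ccl4 did not separate NK cells, 952 CPM [818 to 1102], from neutrophils, 934 CPM [716 to 1198], and neutrophils led in 4 of 5 alternatives. In those without the limit on detected genes and at resolution 2.0, no LN NK class formed. Ccl12 had 4 UMIs in all, none in a named class.

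**Figure D1:**
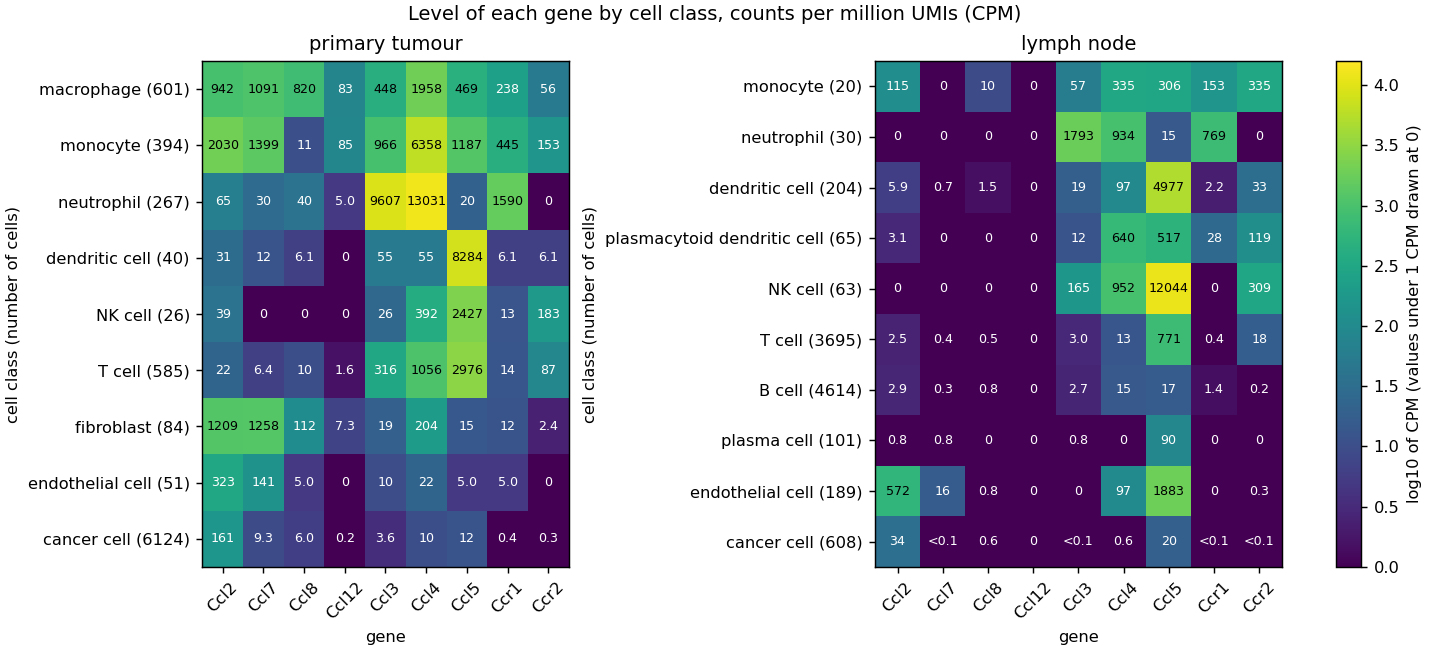
Level of each member (columns) in each cell class (rows) of the primary tumour and the lymph node, in CPM on a log colour scale. Myeloid classes carry most members in the tumour, whereas Ccl5 is spread over dendritic cells, NK cells and T cells in both tissues and over endothelial cells in the lymph node.

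Ccl2, the main monocyte attractant, was found in several kinds of PT cell. Its level was 2030 CPM [1941 to 2123] in monocytes, 1209 CPM [1106 to 1320] in fibroblasts and 942 CPM [907 to 978] in macrophages, and cancer cells had 161 CPM [159 to 164]. Monocytes stood above fibroblasts, and fibroblasts above macrophages, beyond counting error, but where each library was clustered on its own monocytes had 1092 CPM and macrophages led. Endothelial cells had 323 CPM, but 106 of their 130 UMIs came from 1 cell, and 62.5 CPM remained without it. T cells, which are not known as a source of Ccl2, had 22.2 CPM.

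To compare shares of cells at equal depth, cells were thinned to 1000 UMIs and shallower cells were left out. A Ccl2 UMI was then present in 51.9% of PT fibroblasts, 50.4% [45.1 to 55.6] of monocytes (62.7% without thinning), 38.1% of macrophages and 7.84% of cancer cells. The share in PT T cells was 2.63%, which serves as the background level. Median depth was 1559 UMIs in T cells, 2135 in monocytes, 3857 in macrophages, 4530 in fibroblasts and 14062 in cancer cells.

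Because cancer cells were the most numerous and the deepest class, they held 70.2% of all PT Ccl2 UMIs despite their low level. Macrophages held 11.98% and monocytes 8.62%. Ccl2 was also uneven among the cancer cells. It reached 348 CPM [342 to 355] in cluster 0, led by the division genes Cenpf and Ube2c and by the Wnt pathway genes Wnt6 and Axin2, and 294 CPM [282 to 307] in cluster 12, led by Serpinb9b, Cyp1a1 and Sprr1a. The other 3 PT cancer clusters, 6, 2 and 1, had 32.7, 34.5 and 14.3 CPM. At equal depth a Ccl2 UMI was present in 21.7% of cells of cluster 0, 16.6% of cluster 12 and 2.37% of cluster 2. Macrophage markers summed to 12.3 CPM in cluster 0, 15.2 CPM in cluster 12 and 2667 CPM in the macrophages.

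Ccl7, another ligand of Ccr2, followed Ccl2 in myeloid cells and fibroblasts but not in cancer cells. Its level was 1399 CPM [1325 to 1476] in monocytes, 1258 CPM [1152 to 1371] in fibroblasts and 1091 CPM [1052 to 1130] in macrophages, and the intervals of monocytes and fibroblasts overlapped. Fibroblasts or macrophages led Ccl7 in 4 of 5 alternatives, and monocytes had 618 CPM where each library was clustered on its own. In cancer cells it was 9.30 CPM. After thinning, 47.8% of fibroblasts, 35.7% of macrophages and 27.8% of monocytes had a Ccl7 UMI, against 0.845% of T cells and 0.751% of cancer cells. Cancer cells held 12.6% of its UMIs and monocytes together with macrophages 61.9%.

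Ccl8 and Ccl12 were more restricted. Ccl8, a monocyte attractant made by tissue macrophages, was 820 CPM [787 to 854] in PT macrophages, 112 CPM [81.6 to 149] in fibroblasts and 10.5 CPM [5.06 to 19.4] in monocytes, the last close to the 10.3 CPM of T cells. Macrophages held 75.7% of its UMIs and cancer cells 18.99%, although its level in cancer cells, 6.01 CPM, was not above that of T cells. Ccl12, a mouse ligand of Ccr2, was low, with 380 UMIs in the kept PT cells, and did not separate monocytes, 85.4 CPM [67.8 to 106], from macrophages, 83.1 CPM [72.8 to 94.4]. The neighbouring genes thus differed in monocytes, where Ccl12 was present and Ccl8 was near background.

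Among PT myeloid clusters, the 4 monocyte attractants fell into distinct patterns. Cluster 5.0, macrophages led by the complement genes C1qa and C1qb and by Mrc1, carried all 4, with 1654 CPM of Ccl2, 2083 CPM of Ccl7, 1696 CPM [1626 to 1768] of Ccl8 and 171 CPM [149 to 195] of Ccl12. Cluster 5.2, monocytes with F13a1 and the interferon-induced Rsad2 among their leading genes, had the highest Ccl2 of these clusters, 2475 CPM [2363 to 2590], with 1772 CPM of Ccl7 and 105 CPM of Ccl12, but 10.75 CPM of Ccl8. The macrophages of cluster 13, led by Mmp12, Lpl and Gpnmb, had 379 CPM of Ccl2, 284 CPM of Ccl7 and 96.1 CPM of Ccl8. In cluster 5.1, monocytes led by F13a1, Chil3 and Vcan, Ccl2 was 415 CPM and Ccl7 44.0 CPM. Fibroblast cluster 8.2, led by Col3a1, Apod and Dpt, had 1707 CPM [1491 to 1946] of Ccl2, below cluster 5.2, and 2271 CPM of Ccl7. Macrophage markers summed to 83.8 CPM in cluster 8.2.

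**Figure D2:**
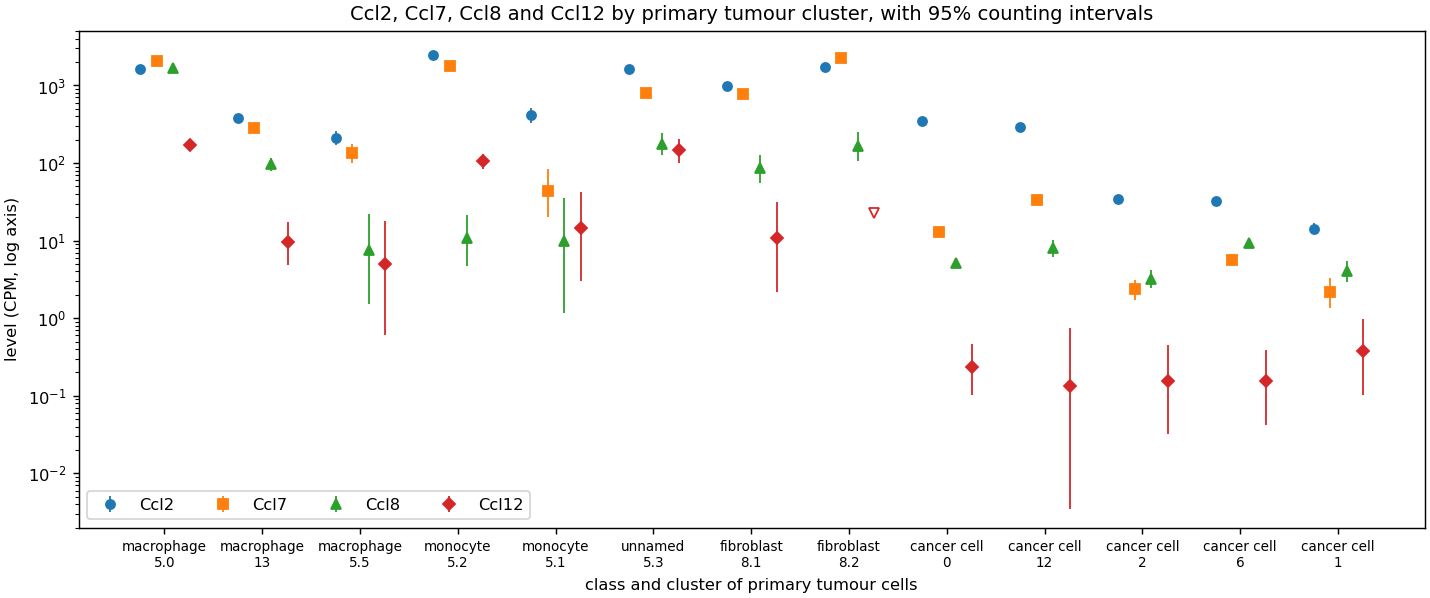
Levels of the monocyte attractants Ccl2, Ccl7, Ccl8 and Ccl12 in clusters of the primary tumour, in CPM on a log axis with 95% Poisson intervals (counting error only); the open triangle is an upper limit at 0 UMIs. Cluster 5.0 carries all 4 genes, cluster 5.2 lacks Ccl8 above 10.75 CPM, and cancer clusters 0 and 12 carry Ccl2 alone at over 100 CPM.

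Ccl2 and Ccl7 were also found together in single cells. Among thinned cells of cluster 5.2, Ccl7 was present in 54.1% of the cells with Ccl2 and in 9.40% of the cells without it, and in cluster 5.0 in 78.8% and 40.5%. In cancer cluster 0 the shares were 3.67% and 0.806%. For Ccl7 and Ccl8 in cluster 5.0, Ccl8 was present in 44.5% of cells with Ccl7 and 36.0% of cells without, and in the macrophage class in 36.9% and 11.8%. Ccr2 was present in 11.6% of the cluster 5.2 cells with its ligand Ccl2 and in 11.01% of those without. These shares describe cells of 1 library and carry no test.

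Ccl3 and Ccl4 had their highest PT levels in neutrophils. Ccl3 was 9607 CPM [9183 to 10045] there, 966 CPM [904 to 1030] in monocytes, 448 CPM in macrophages and 316 CPM in T cells. Ccl4 was 13031 CPM [12537 to 13540] in neutrophils, 6358 CPM [6198 to 6520] in monocytes, 1958 CPM [1906 to 2010] in macrophages and, in T cells, 1056 CPM [1000 to 1115]. The order of these 4 classes was thus the same for both genes, with no overlap of intervals between neighbours.

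PT neutrophils were shallow, with a median of 698 UMIs, so that 236 of 267 were left out on thinning to 1000 UMIs. Of the 31 that remained, 60.2% [41.1 to 77.2] had Ccl3 and 57.6% [38.6 to 75.0] had Ccl4. Thinning to 500 UMIs gave 68.0% [62.0 to 73.6] and 52.7% [46.5 to 58.8]. In PT fibroblasts, which should lack both genes, 2.096% and 4.13% of cells had a UMI at 1000 UMIs, and 53 of the 84 Ccl4 UMIs of fibroblasts lay in 1 cell.

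Neutrophils were not alike in these genes. Cluster 7.1 had 14938 CPM of Ccl3 and 16696 CPM of Ccl4, and cluster 7.0 had 3544 and 9791 CPM. All clusters of this class were led by S100a9, which encodes an abundant protein of the neutrophil cytosol. Their macrophage markers summed to 159 CPM, with Mrc1 and Ms4a7 at 0. By share of UMIs, Ccl3 was divided among neutrophils with 32.9%, macrophages with 21.7%, unnamed cells with 16.7% and monocytes with 15.6%, and Ccl4 among monocytes with 28.6%, macrophages with 26.3%, unnamed cells with 20.98% and neutrophils with 12.4%.

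Ccl3 and Ccl4 were often found in the same cells. In T cell cluster 3, led by Cxcr6, Cd8a and Pdcd1, Ccl4 was present in 81.1% of thinned cells with Ccl3 and in 22.7% of those without. In PT monocytes as a class the shares were 88.1% and 52.0%, and in the 31 PT neutrophils 78.4% and 26.1%. In PT macrophages they were 57.6% and 37.5%, and in LN NK cells 46.8% and 22.8%.

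Ccl5 had its highest levels in dendritic cells and NK cells, and T cells, myeloid cells and LN endothelial cells carried it too. In the PT it was highest in dendritic cells, 8284 CPM [7848 to 8739], followed by 2976 CPM [2881 to 3073] in T cells, 2427 CPM [2091 to 2803] in NK cells, 1187 CPM [1119 to 1258] in monocytes and 469 CPM in macrophages. In the LN it was highest in NK cells, 12044 CPM [11553 to 12551], followed by dendritic cells, 4977 CPM [4859 to 5098], and was 1883 CPM [1839 to 1928] in endothelial cells and 771 CPM [756 to 787] in T cells. The intervals of neighbours in each order did not overlap. T cell markers summed to 191 CPM in the PT dendritic cells and to 4736 CPM in the PT T cells.

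At equal depth, Ccl5 was present in 95.4% [86.9 to 99.1] of LN NK cells, 75.0% of PT dendritic cells, 58.4% of PT T cells, 47.2% of LN dendritic cells, 43.8% of LN endothelial cells and 11.2% of LN T cells. The classes taken as background had 0.840% (PT fibroblasts) and 1.24% (LN cancer cells). Of the kept Ccl5 UMIs, T cells held 37.7% in the PT and 36.9% in the LN. LN endothelial cells held 26.1% and LN dendritic cells 24.98%. These shares depend on the limit on detected genes, which removed 200 LN endothelial cells with 21660 Ccl5 UMIs, and without it endothelial cells held 58.6% of the LN UMIs and T cells 24.8%. With each library clustered on its own, LN endothelial cells held 26.2% and T cells 23.2%, and PT T cells held 16.7%. With doublets kept, LN dendritic cells held 33.2% and T cells 31.8%.

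Monocytes and macrophages together held over 50% of the PT UMIs of 6 of the 9 members, from 54.9% for Ccl4 and 56.2% for Ccr2 to 61.9% for Ccl7, 64.8% for Ccr1, 76.1% for Ccl8 and 83.4% for Ccl12. They held less of Ccl3 (37.3%), Ccl5 (24.8%) and Ccl2 (20.6%). In an alternative chosen after the data were seen, the unnamed subclusters 5.3 and 5.4 of the same parent cluster were counted as well, and the shares then ran from 22.4% for Ccl2 to 92.4% for Ccl12.

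**Figure D3:**
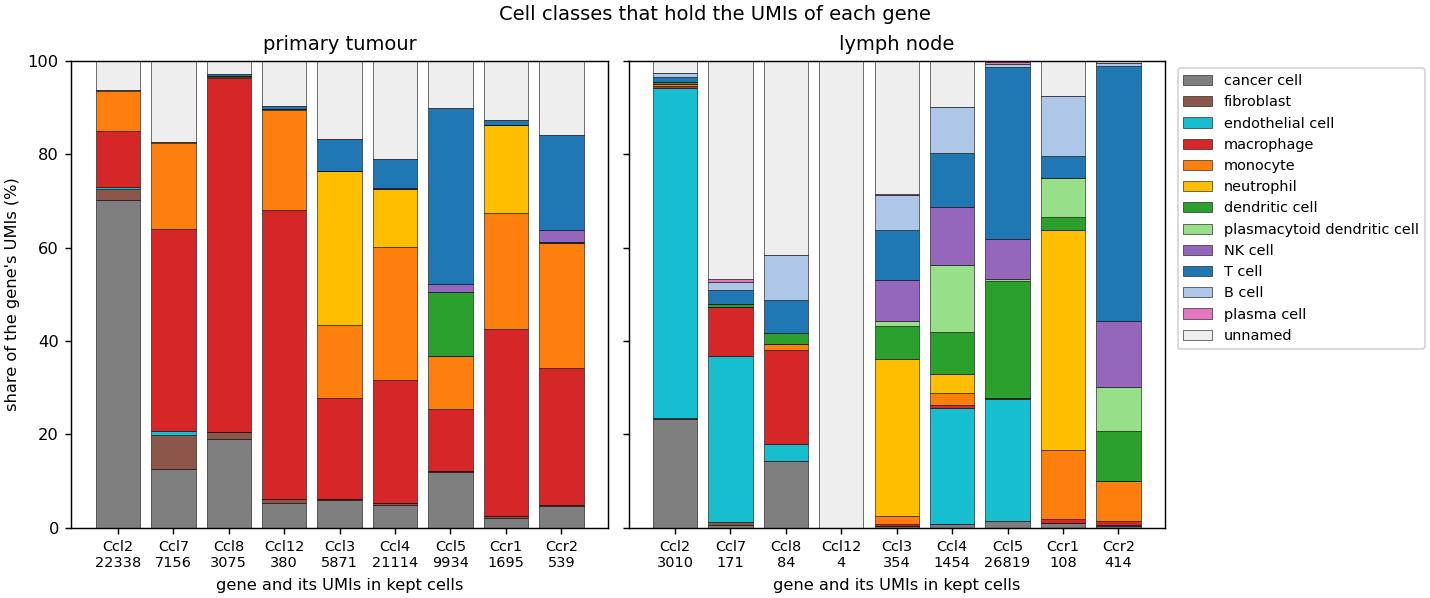
Share of each member's UMIs held by each cell class, in percent of the kept UMIs of that library. Cancer cells hold most Ccl2 in the primary tumour and endothelial cells most in the lymph node, with 70.2% and 70.8%.

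Ccr1, the receptor of Ccl3 and Ccl5, was highest in neutrophils of both tissues, with 1590 CPM [1421 to 1775] in the PT and 769 CPM [572 to 1011] in the LN. PT monocytes had 445 CPM [403 to 489] and macrophages 238 CPM [221 to 257]. Lymphocytes carried little of it, with 13.5 CPM in PT T cells and 1.44 CPM in LN B cells. Monocyte cluster 5.1 had 586 CPM [486 to 701] and macrophage cluster 13 had 189 CPM [164 to 216]. After thinning, Ccr1 was present in 68.9% [49.8 to 84.2] of the 31 PT neutrophils, 34.0% of monocytes, 22.0% of macrophages and 0.777% of T cells.

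Ccr2, the receptor of Ccl2, Ccl7 and Ccl12, was sparse, with 539 UMIs in the kept PT cells and 414 in the LN. Its PT levels were 183 CPM [99.9 to 307] in NK cells (14 UMIs), 153 CPM [129 to 180] in monocytes, 87.4 CPM [71.9 to 105] in T cells and 55.6 CPM [47.3 to 65.0] in macrophages. NK cells and monocytes did not differ beyond counting error. PT neutrophils had no Ccr2 UMI among 201211, which allows a level of up to 14.9 CPM by 3 counts. Among myeloid clusters it was 259 CPM [212 to 314] in cluster 5.5, macrophages led by Mgl2 and Naaa, 235 CPM [173 to 311] in monocyte cluster 5.1, 130 CPM [106 to 159] in cluster 5.2, 39.0 CPM [29.1 to 51.3] in cluster 5.0 and 2.65 CPM in cluster 13.

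Clusters 5.5 and 5.1, highest in Ccr2, had 212 and 415 CPM of Ccl2, whereas cluster 5.0, low in Ccr2, had 1654 CPM of the ligand. Clusters 5.2 and 5.3 carried both, with 154 CPM [107 to 216] of Ccr2 and 1615 CPM of Ccl2 in cluster 5.3, so the myeloid clusters did not divide into those with receptor and those with ligand. In the LN, Ccr2 was 335 CPM [234 to 466] in monocytes, 309 CPM [234 to 399] in NK cells, 119 CPM [84.9 to 163] in plasmacytoid dendritic cells and 17.7 CPM [15.5 to 20.2] in T cells. LN T cells nevertheless held 54.8% of its UMIs, and cluster 18 of them had 294 CPM [237 to 361]. In cancer cells Ccr1 was 0.370 CPM and Ccr2 0.257 CPM in the PT, and 1 Ccr2 UMI was found in all 608 LN cancer cells.

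In the LN, endothelial cells were the leading class of Ccl2, with 572 CPM [548 to 597] and 70.8% of the UMIs. 1071 of their 2130 UMIs came from 1 cell, and 287 CPM remained without it. At equal depth, 15.1% [10.1 to 21.3] of endothelial cells had a Ccl2 UMI, against 0.283% of B cells. The 21 endothelial cells like those of high endothelial venules had 630 CPM [570 to 694], and the other 168 had 560 CPM [534 to 587]. The others include subcluster 3, 39 cells with Glycam1 among their leading genes, so they were not free of genes of high endothelial venules. Without the highest cell of each, 459 and 215 CPM remained.

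Ccl5 in LN endothelial cells did not rest on 1 cell, since 1745 CPM remained without the highest. It was 1921 CPM [1815 to 2031] in cells like those of high endothelial venules and 1875 CPM [1827 to 1924] in the others. T cell markers summed to 49.7 CPM in LN endothelial cells and to 3634 CPM in LN T cells. NK cell markers summed to 174 CPM, with 4 of 7 detected and Ncr1, Klrb1c and Klra8 at 0, and to 1809 CPM in LN NK cells. The part of RNA from other cells in the endothelial Ccl5 level was not tested. The study's methods describe sorted LN endothelial cells prepared alongside, and do not state whether any of them are in this library.

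Several smaller values also rested on 1 cell. Of 169 Ccl5 UMIs in LN plasmacytoid dendritic cells, 166 were in 1 cell. Of 119 Ccl3 UMIs in LN neutrophils, 89 were in 1 cell, and 467 CPM of 1793 CPM remained without it. All 35 Ccl4 UMIs of LN monocytes and 66 of 179 Ccl4 UMIs of LN NK cells were in 1 cell each. By contrast, PT monocytes had 1967 CPM of Ccl2 and PT neutrophils 9415 CPM of Ccl3 without the highest cell.

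**Figure D4:**
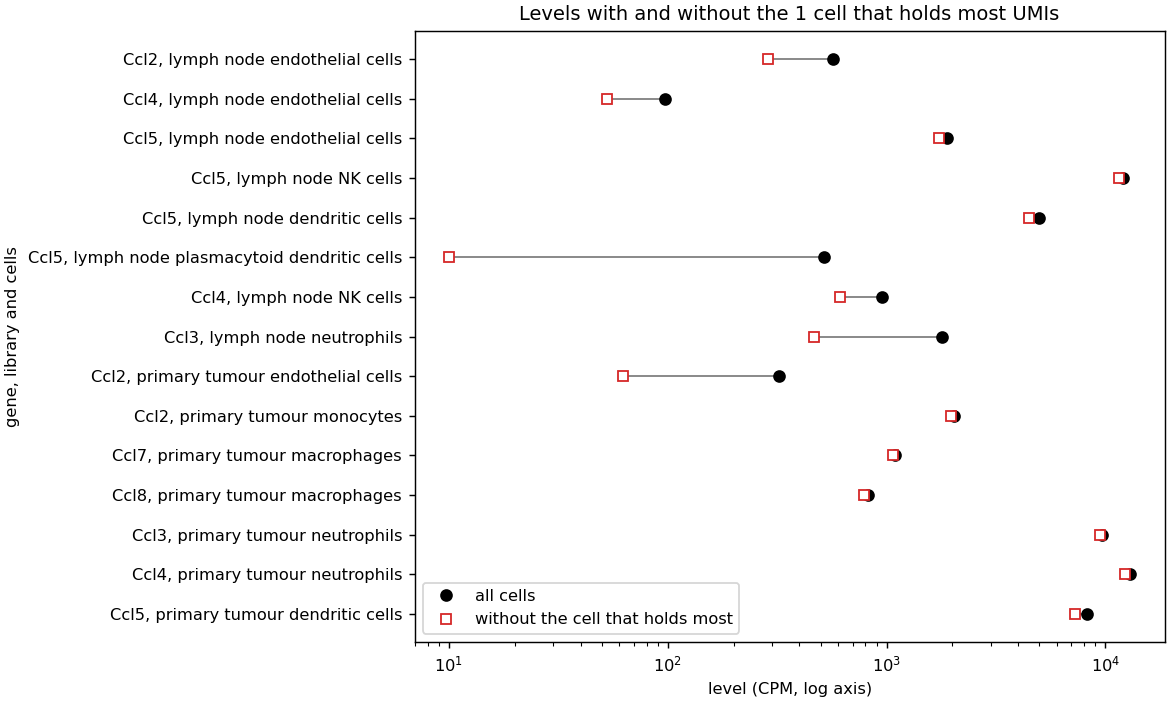
Level of members in selected classes, in CPM on a log axis, with all cells and without the cell that holds most UMIs of the gene. The values of lymph node endothelial Ccl2 and plasmacytoid dendritic cell Ccl5 drop to 287 and 9.98 CPM and that of tumour endothelial Ccl2 to 62.5 CPM, while the tumour monocyte, macrophage and neutrophil values stay in place.

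To compare tissues within a class, the LN level was set against the PT level in classes with at least 20 cells in each library, for genes with a mean of at least 10 CPM and at least 50 UMIs. In T cells, 5 of 9 members passed this filter, Ccl2 and Ccl3 only through their PT level, since the filter takes the mean of the tissues, and no weight is placed on how many of the 5 were lower. The background was that 25.8% of the 7457 genes that passed were at least 2-fold lower in the LN and 4.65% higher, and the median of all genes was -0.44 on the log2 scale. The log2 ratios were -6.72 for Ccl3, -6.31 for Ccl4, -3.16 for Ccl2, -2.31 for Ccr2 and -1.95 [-2.00 to -1.89] for Ccl5. Ccl3 went from 316 to 2.97 CPM and Ccl4 from 1056 to 13.3 CPM, while Ccl2, from 28 PT and 32 LN UMIs, went from 22.2 to 2.50 CPM in a class that served above as its PT background. PT T cells were mostly of cluster 3 (525 of 585) and LN T cells of clusters 19, 11 and 10, so these ratios compare different T cells.

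Within T cell cluster 3 the order of Ccl5 turned. It was 7374 CPM in 26 LN cells and 3310 CPM in 525 PT cells, a log2 ratio of 1.16 [1.06 to 1.25]. Ccl4 stayed lower in the LN, at -1.37 [-1.75 to -1.04], and Ccl3 at -1.43 [-2.19 to -0.82]. In cluster 10, led by Tnfrsf4, Ctla4 and Foxp3, Ccl5 was -0.21 [-0.68 to 0.35], an interval that includes 0, Ccl3 was -6.15 [-12.16 to -3.44] from 1 LN and 5 PT UMIs, and Ccl4 was -5.77 [-7.68 to -4.33] from 5 and 15.

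In cancer cells, 2 members passed the filter. Ccl2 was 34.5 CPM [32.0 to 37.1] in the LN and 161 CPM in the PT, a log2 ratio of -2.23 [-2.34 to -2.12], and Ccl5 was 0.68 [0.51 to 0.84]. LN cancer cells served above as background for Ccl5, with 99 of their 400 UMIs in 1 cell, and without the limit on detected genes the ratio was 0.06 [-0.07 to 0.19]. Thus 1 member was at least 2-fold lower, as were 6.63% of the 7485 genes that passed, and 0 were higher, against 3.30%. Without the limit on detected genes, which removed 721 LN cancer cells, the Ccl2 ratio was -3.27. Most LN cancer cells were of cluster 24 (513 of 608), which held no PT cell, and cluster 0, which was high in Ccl2, held 4 LN cells. Within cluster 2, Ccl2 was -1.74 [-2.67 to -1.03] and Ccl5 was 2.03 [1.60 to 2.44].

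NK cells went the other way. 3 members passed, and 2 were at least 2-fold higher in the LN, Ccl5 at 2.31 [2.095 to 2.53] and Ccl4 at 1.26 [0.72 to 1.89] (952 against 392 CPM, and 610 CPM in the LN without the cell that holds 66 UMIs), while 11.9% of 742 genes were higher and 4.58% lower. Ccr2 was 0.72 [-0.10 to 1.71]. The class was cluster 20 in both tissues, and T cell markers summed to 686 CPM in its LN cells and 196 CPM in its PT cells, a difference whose part in the ratios was not tested. In dendritic cells 0 of the 2 members that passed were past 2-fold, where 11.9% of 3532 genes were higher and 11.4% lower. Ccl5 was -0.74 [-0.82 to -0.65] there and Ccl4 was 0.73 [-0.17 to 1.97]. The dendritic cells differed in other genes of the family between the tissues, with 5482 CPM of Ccl22 in the PT and 539 CPM in the LN, and the part of this in the ratios was not tested.

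In endothelial cells, a comparison added after the data were seen, the PT cells were of cluster 9 and 186 of 189 LN cells of cluster 25, which held no PT cell, so different cells were compared. 4 members passed, Ccl5 only through its LN level of 1883 CPM, since the PT cells had 4.96 CPM, and no weight is placed on their number. In all, 19.1% of 6976 genes were at least 2-fold higher and 22.2% lower. Ccl5 was 8.25 [6.71 to 11.61], from 7013 UMIs in the LN and 2 in the PT, and Ccl4 was 2.04 [1.18 to 3.26], from 361 UMIs, 166 of them in 1 cell, and 9 in the PT. Ccl7 was -3.11, with 40 of 57 PT UMIs and 22 of 61 LN UMIs in 1 cell each, and Ccl2 was 0.82, with values that rest on single cells as above. The Ccl2 levels that remained without those cells were over 2-fold apart, higher in the LN. Cancer cell markers summed to 943 CPM in the PT endothelial cells and to 67.9 CPM in those of the LN, and the part of this in the ratios was not tested. Monocytes could be compared within cluster 5.1, with 20 LN and 85 PT cells: Ccl2 was -1.80 [-2.86 to -0.97] and Ccr1 -1.90 [-2.79 to -1.18], Ccl4 was -1.85 with all its LN UMIs in 1 cell, and Ccr2 was 0.52 [-0.16 to 1.17].

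**Figure D5:**
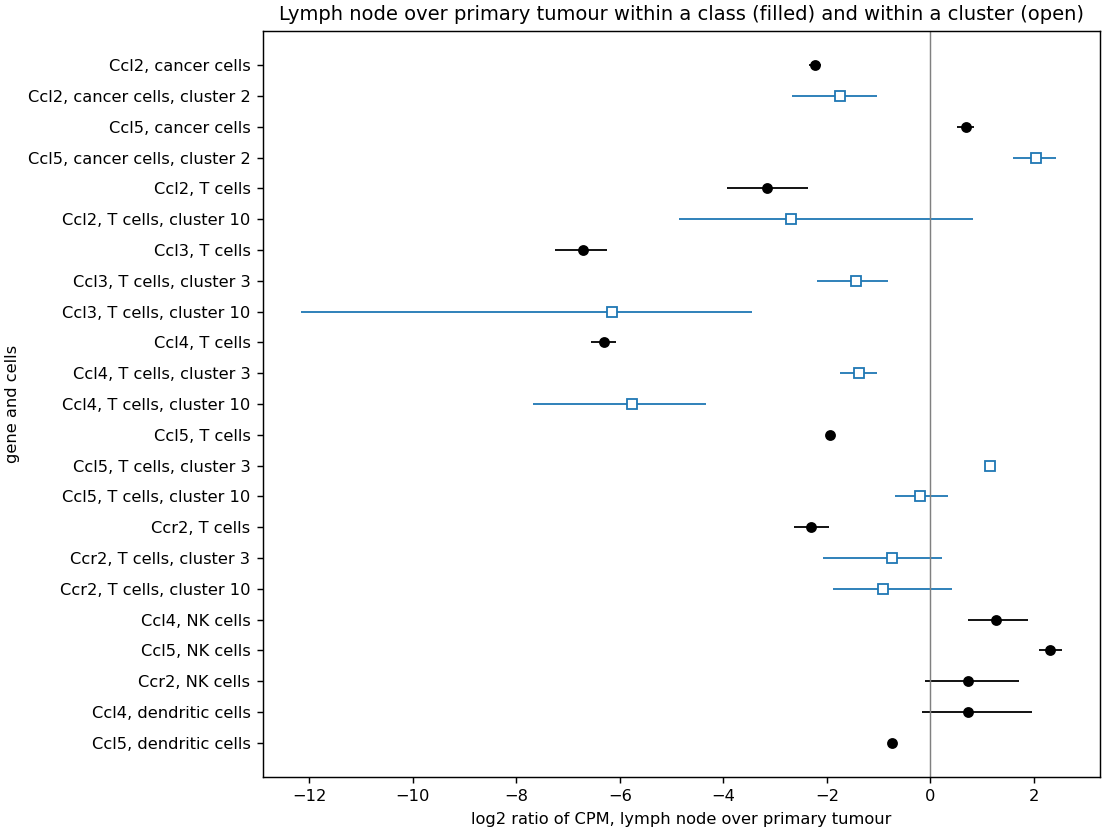
Log2 ratio of lymph node over primary tumour level for members that passed the filter, within cell classes (filled) and within single clusters (open), with 95% intervals for counting error. Values below 0 are lower in the lymph node, as the T cell class ratios are, while Ccl5 within T cell cluster 3 is at 1.16.

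Digestion and stress can switch on chemokine genes, so a fixed list of 14 NF-kB and immediate early genes was read beside them. PT neutrophils had 62541 CPM of Cxcl2, a neutrophil attractant, 12017 CPM of Il1b and 1590 CPM of Tnf, the last 2 being inflammatory cytokines. PT monocytes had 20928 CPM of Cxcl2 and 11934 CPM of Il1b, and LN neutrophils 18988 and 2758 CPM. PT fibroblasts, high in Ccl2 and Ccl7, had 2613 CPM of Egr1 and 1602 CPM of Fos, which are induced within minutes of a stimulus. LN endothelial cells had 1616 CPM of Jun, 73.6 CPM of Egr1 and 38.1 CPM of Fos. The part of tissue handling in the chemokine levels was not tested.

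The other 26 CC ligands, receptors and atypical receptors measured show where the 9 members sit in the family. 13 of the 26 had at least 100 UMIs in the PT and 11 in the LN. In the PT, 3 of the 13 led in dendritic cells, among them the T cell attractants Ccl22, 5482 CPM, and Ccl17, 1653 CPM, and Ccr7, 3663 CPM, which guides dendritic cells to lymph nodes. 3 led in T cells, among them Ccl25 at 21.5 CPM against 15.2 CPM in cancer cells, 3 in fibroblasts, among them Ccl27a with 6 UMIs, 2 in macrophages, including Ccl9 at 1772 CPM, and 2 in neutrophils, Ccl6 at 4458 CPM and Ccrl2 at 3052 CPM. In the LN the leading classes were dendritic cells and neutrophils for 3 each, NK cells for 2, and B cells, monocytes and plasmacytoid dendritic cells for 1 each, although Ccl27a led in neutrophils with 1 UMI and Ccl25 in NK cells with 8.

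Over 19 profiles, a profile being a class in a library, levels of the members were correlated as a description; profiles of a library share its depth and free RNA, and no p is given. Ccl3 and Ccl4 had the highest r among members, 0.87, followed by Ccl3 and Ccr1 with 0.86 and Ccl2 and Ccl7 with 0.83. Ccl5 and Ccl7 had the lowest, -0.16. Among all 6991 genes ranked, those nearest to Ccl2 were Emp1, Rai14 and Mcfd2, with r of 0.91 to 0.89. Those nearest to Ccl3 were Ccrl2, Osm and Stx11 (0.93 to 0.89), to Ccl4 Lilr4b and Zeb2 (0.90 each), to Ccl5 Klrk1 (0.83), to Ccl7 Lif (0.89), to Ccl8 Gpnmb (0.87) and to Ccr1 Ccl6 (0.95).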

How the data were processed

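The authors deposited UMI counts, not normalised, which they made with Cell Ranger (5.0.0 in the file header, 2.1.1 in the submitters' processing notes) on GRCm38. Here cells with fewer than 201 or over 6000 genes, over 5% mitochondrial counts or a Scrublet doublet call (scanpy 1.11.5; 391 PT cells; no LN cell was marked automatically, so the 616 with the highest scores were removed) were left out, and cells were clustered together with Leiden (resolution 1.0; cluster numbers with a point are subclusters) after selection of 2000 variable genes per library, from which the members and the other CC family genes were kept out. The 9 members, the gene lists and the marker lists were chosen with earlier results of these data known. A class led if its CPM was highest among named classes of at least 20 cells. Levels are summed counts per class with exact Poisson intervals, shares after thinning have Clopper-Pearson intervals, and ratios have 0.5 counts added to each sum and exact intervals of the split of both sums. The genes named are the members, the listed family genes and genes among the 3 nearest to a member by Pearson's r of log levels; some of these are not reported here. With 1 library per tissue no test was made. Scripts were tested on simulated data. Alternatives were filters, clustering, doublets, scaling and leaving out the top cell.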

Additional observations from a re-analysis of the deposited data

Results flagged for a closer look

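Cells that the filters left out also held UMIs of the members, above the level in the kept cells for the following genes. In cells over the gene limit, Ccl2 was 328.9 CPM in the PT (210.9 CPM in kept cells) and 118.4 CPM in the LN (59.84 CPM). Of the 7909 LN UMIs there, 7024 were in 200 endothelial cells, at 454.1 CPM against 571.9 CPM in the kept ones, and 780 in 721 cancer cells, at 16.15 against 34.46 CPM; of the 14770 PT UMIs, 12652 were in 721 cancer cells, at 339.9 CPM. In PT cells over the mitochondrial limit, Ccl5 was 125.2 CPM (93.78 in kept cells), Ccl8 was 36.93 CPM (29.03), Ccl12 was 4.024 CPM (3.587) and Ccr2 was 8.697 CPM (5.088). In LN cells over the mitochondrial limit, Ccl7 was 5.013 CPM (3.399) and Ccl8 was 6.445 CPM (1.670). No cause was tested.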

How the results depend on the processing

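No paired analysis was possible because each tissue has 1 library and no test was made. The level of Ccl5 in LN NK cells, 12044 CPM, was 11291 CPM with doublets kept, 13729 CPM as a mean over cells and 17732 CPM over genes other than mitochondrial, ribosomal and haemoglobin genes; no NK class formed without the gene limit or at resolution 2.0. The share of PT Ccl2 in cancer cells, 70.2%, was 80.7% without the gene limit, 72.0% (71.95%) with a mitochondrial limit of 10% and 68.3% with each library clustered on its own. The LN count of members led by macrophages, monocytes or neutrophils, 4, was 3 with the mitochondrial limit of 10%, 5 without the gene limit and with separate clustering, 6 with doublets kept and 7 at resolution 2.0. The log2 ratio of Ccl2 in cancer cells, -2.23, was -3.27 without the gene limit, -1.90 as a mean over cells, -2.43 without the top cell, and, in settings chosen after seeing the data, -1.42 (-1.415) within cluster 1, from 2 LN UMIs with an interval of -4.79 to 0.15, and -1.74 within cluster 2. The log2 ratio of Ccl5 in T cells, -1.95, was -1.67 without the gene limit, -2.01 (-2.005) with the mitochondrial limit of 10%, -2.15 with separate clustering, -2.08 at resolution 2.0, -2.54 as a mean over cells, -1.69 (-1.685) over the other genes, -0.21 within cluster 10 and 1.16, with the sign turned, within cluster 3. Cluster comparisons with 0 UMIs in a library were left out. Of 128 alternative levels 110 stayed within 1.5-fold, as did 86 of 102 shares of UMIs and 24 of 34 thinned shares; of 99 alternative log2 ratios 94 kept their sign and 21 moved by over 1.5-fold. The leading class was the same in 33 of 45 comparisons in the PT and 26 of 40 in the LN. Apart from these constructions, the cause was not tested. Depth limits Ccl12, with 380 PT and 4 LN UMIs.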
